A study of Homo sapiens with 4 samples.

Results

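The transcriptome of HCC1937 cells with restored BRCA1 was compared with that of the vector line in the absence of drug. HCC1937 is an established human breast cancer line. The library titled HCC1937_wtBRCA1_DMSO (genotype given as wild type, treated with DMSO, the solvent) was set against HCC1937_vector_DMSO (genotype given as BRCA1 -/-, carrying a vector, also under DMSO), with 1 library on each side. The same lines were also profiled under OTX-015, an inhibitor of the BET bromodomain proteins that read acetylated histones, and that pair of libraries is used here only to set the line difference beside a pair that shares neither library. Polyadenylated RNA was sequenced from a directional library kit, and each gene has an FPKM value (fragments per kilobase of transcript, scaled to the mapped fragments of the library). Doses, treatment times, whether the wtBRCA1 line is 1 clone or a pool, and which promoter drives its BRCA1 are not given in the sources used here. Genes listed at 5 FPKM or more in either DMSO library were kept, which gave 11549 of 60487 genes. Of these, 95 short structural RNA genes were set aside and 11454 were compared. Each difference is log2(FPKM + 1) in the wtBRCA1 library minus that in the vector library, a scale that understates changes of low genes. There is no replicate, so no difference has an error or a test, and "2-fold" below means a difference of at least 1 on this scale in either direction. Values are FPKM under DMSO and in vector cells first unless another order is stated.

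BRCA1 is a ubiquitin ligase with its partner BARD1 and brings PALB2 and BRCA2 to broken DNA during homologous recombination, a repair route that copies the sister chromatid. In the mammary gland it is also known for its part in the decision between luminal progenitor and basal fates, and cells that lack it carry unrepaired DNA that can reach the cytoplasm, where nucleic acid sensors start an interferon response. Basal mammary cells are marked by KRT5, KRT14 and KRT17, the transcription factor p63 and hemidesmosome proteins, and luminal cells by KRT8, KRT18 and KRT19 and the factors GATA3 and FOXA1.

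Some features of the files bear on every level given below. The FPKM values summed to 909314 in the vector library and 962378 in the wtBRCA1 library, with 10273 and 10471 genes at 5 FPKM or more, and the read depth is unknown because no counts were used. Among 531 pairs in which an antisense gene lies inside 1 protein-coding gene and both were at 5 FPKM or more, the antisense gene was listed above its host in 298 pairs in vector cells, in 306 in wtBRCA1 cells and in 271 in both. GAPDH was at 1173 and 1486 FPKM, and the antisense entry RP5-940J5.9 inside it at 21740 and 20666. MT-ND6, the one protein-coding gene of the light mitochondrial strand, was at 3656 and 6362 FPKM, above the 12 heavy-strand genes (155 to 2428 and 248 to 3462). In 123 pairs the host had a 2-fold difference, and some hosts are in more than 1 pair. The antisense gene differed in the same direction in 106 of these pairs, 2-fold in 61 of them. In 3 pairs it differed 2-fold in the opposite direction. The sources used here do not say whether counting used strand, so the reads of a gene and of an overlapping gene on the other strand cannot be told apart. Such partners are named beside many of the genes described, but not beside each of them.

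BRCA1 was listed at 37.2 FPKM in vector cells and 171 in wtBRCA1 cells, a difference of 2.17, in the direction of the labels. FPKM is given per gene, so the added BRCA1 and the line's own transcript are not separated. Under OTX-015 the same difference was 6.02. Of 14 genes of the BRCA1 complexes, 13 reached 5 FPKM. 3 of the 13 were 2-fold higher and 1 was 2-fold lower, against 15.2% and 12.0% of all genes compared. Of the 11 already at 5 FPKM in vector cells 2 were higher, and of the 12 at it in wtBRCA1 cells 0 were lower. BRCA2 passed the limit only through the wtBRCA1 library and BARD1 only through the vector library. The 3 were BRCA1 itself, BRCA2, a mediator of homologous recombination (2.04 and 8.82, difference 1.69), and BABAM1, a subunit of the BRCA1-A complex (64.9 and 181, difference 1.47). BARD1, the obligate partner, was lower, at 11.6 FPKM in vector cells and 4.13 in wtBRCA1 cells (-1.30). Only BABAM1 of these partners had a 2-fold difference in the OTX-015 pair (1.51), where BRCA2 differed by 0.30 and BARD1 by -0.23.

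Across the 11454 genes, 1739 (15.2%) were 2-fold higher in wtBRCA1 cells, 1379 (12.0%) were 2-fold lower and 8336 (72.8%) lay within 2-fold, with a median difference of 0.06. Differences of at least 3 on the log2 scale were found for 155 higher and 129 lower genes. The median absolute difference was 0.58 over all genes and 0.53 over genes at 50 FPKM or more. It was 0.55 for the 349 genes just inside the limit (5 to 5.5 FPKM) and 0.69 for the 409 just outside it (4.5 to 5). In the OTX-015 libraries 13.7% of the same genes were 2-fold higher and 11.6% 2-fold lower. There, 818 of the 1739 higher genes were again 2-fold higher (47.0% of the DMSO list and 52.1% of the OTX-015 list) and 43 were 2-fold lower. Of the 1379 lower genes, 620 were again 2-fold lower (45.0% and 46.8% of the 2 lists) and 40 were 2-fold higher. These shares of all genes (15.2% higher, 12.0% lower and 72.8% within 2-fold) are the ones to set beside the counts of every list below. A gene that passed the FPKM limit through 1 library only had to be higher in that library, so for many lists counts are also given for the genes already at the limit in the library where they were lower. The treatment differs between the DMSO and OTX-015 pairs, so they are not replicates, and whether a gene outside the overlap responds to OTX-015 or varies between libraries was not tested.

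**Figure D1:**
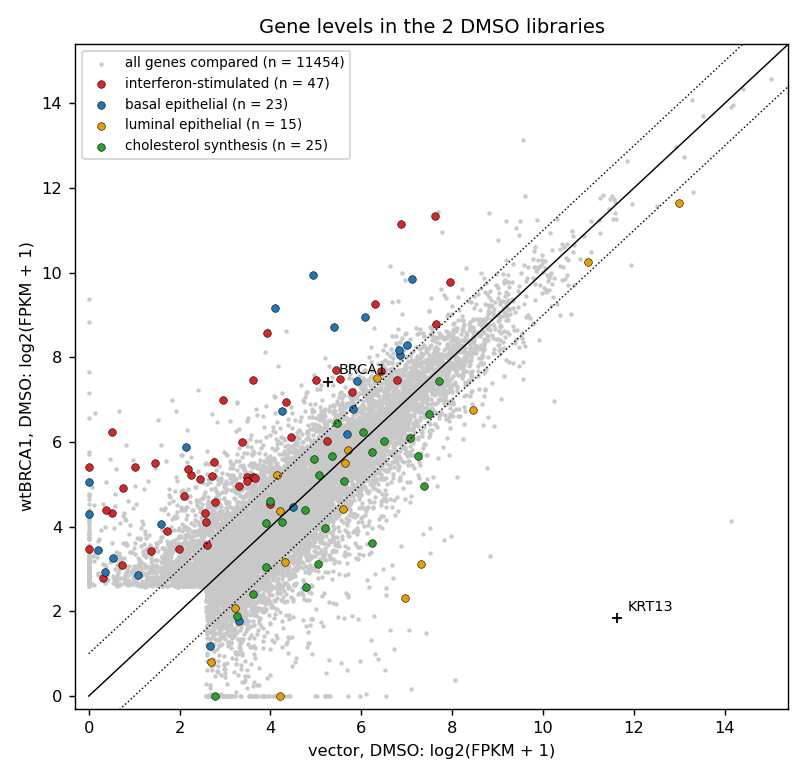
Level of each gene compared in the vector library (x axis) and the wtBRCA1 library (y axis) under DMSO, as log2(FPKM + 1), with 1 point per gene, the line of equality and dotted lines at 2-fold. Of the interferon-stimulated genes (red) 43 of 47, and of the basal genes (blue) 18 of 23, lie above the upper dotted line, 9 of 15 luminal genes (orange) and 9 of 25 cholesterol genes (green) lie below the lower one, and KRT13 lies far to the right at 3141 and 2.58 FPKM.

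The keratins separated into opposite directions. Keratins form the intermediate filaments of epithelial cells, in pairs that differ between basal, stratified and simple epithelium. Of 20 keratins of stratified epithelium 11 reached 5 FPKM, and 7 were 2-fold higher and 3 lower. Of the 8 already at 5 FPKM in vector cells 4 were higher, and of the 10 at it in wtBRCA1 cells 2 were lower. The list median was 2.73 under DMSO and 0.69 under OTX-015. There, 4 of the 7 were again 2-fold higher and 2 of the 3 again lower. KRT5, the type II keratin of basal cells, was at 29.4 FPKM in vector cells and 980 in wtBRCA1 cells (5.01). Its usual partner KRT14 was far lower in both, at 0.438 and 8.53 (2.73), while KRT17 stood at 137 and 920 (2.74), KRT15 at 41.1 and 422 (3.33) and KRT16 at 66.7 and 497 (2.88). Thus the highest type I keratin of this list in wtBRCA1 cells was KRT17 and not KRT14. KRT6A, a keratin of activated epithelium, was at 3.43 and 58.1 FPKM (3.74). Clone-named entries share the loci of KRT5, KRT6A and KRT6B and were listed above them in both libraries. The entry at KRT5 was at 750 and 9019 FPKM and the one at KRT6A at 449 and 2705, so the direction was the same and the levels were not.

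The reverse was found for 3 keratins of the stratified list, KRT13, KRT4 and KRT10, and for 4 of the measured keratins of simple epithelium and hair. KRT13, the type I keratin of non-cornifying mucosa, was at 3141 FPKM in vector cells and 2.58 in wtBRCA1 cells, a difference of -9.78 and the largest of the 15 named lower genes, and its partner KRT4 was at 78.0 and 6.35 (-3.42). The antisense entry AC019349.5 within KRT13 was at 18037.5 and 16.6 FPKM. KRT10 was at 31.2 and 13.2, with TMEM99 on the other strand at 21.0 and 17.7. Of 17 keratins of simple epithelium and hair, 6 reached 5 FPKM, 4 of which were 2-fold lower and 0 higher, among them 2 of the 4 at 5 FPKM in wtBRCA1 cells. KRT19, found in luminal and simple epithelia, was at 124 and 3.97 (-4.65). KRT81, a hair keratin also known from breast cancer lines, was at 268 and 0.303 (-7.69), and it shares a locus entry with KRT7 (2039 and 1216) and AC021066.1 (18046 and 15377), which lay within 2-fold. KRT8 and KRT18, the pair of simple epithelium, were at 8160 and 3185 (-1.36) and at 349 and 108 (-1.69), and the annotation has them overlapping on opposite strands. KRT8 had the highest value of the listed keratins in both libraries, but its reads and those of KRT18 cannot be told apart, and the clone-named entry at KRT5 was above it in wtBRCA1 cells.

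**Figure D2:**
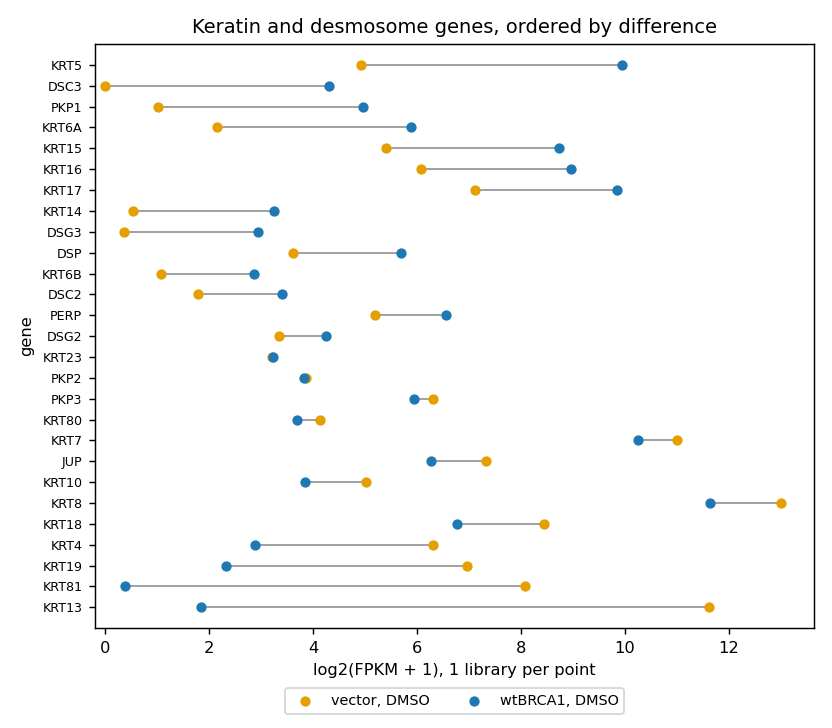
Level of the 17 keratin and 10 desmosome genes at 5 FPKM or more, as log2(FPKM + 1) on the x axis, with 1 library per point and a line joining the vector (orange) and wtBRCA1 (blue) values of a gene. KRT5 at the top differed by 5.01 towards wtBRCA1 and KRT13 at the bottom by -9.78, while KRT23 (0.03) and PKP2 (-0.04) had nearly the same level in both.

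Other basal genes were higher together with KRT5. Of 25 basal epithelial genes 23 reached 5 FPKM, 18 were 2-fold higher and 2 lower, and their median difference was 2.48 against 0.06 for all genes. Among the 15 basal genes already at 5 FPKM in vector cells, 10 were 2-fold higher. Under OTX-015 the median of the basal list was 0.84, and 10 of the 18 higher genes were again 2-fold higher. S100A2, which binds calcium and marks basal cells, was at 16.1 and 572 FPKM (5.07). TP63, the master regulator of stratified epithelium, was at 0.147 and 9.93 (3.25) under DMSO, but its difference under OTX-015 was 0.00. The hemidesmosome integrin subunits ITGB4 and ITGA6 were at 18.1 and 106 (2.48) and at 128 and 312 (1.28), their collagen partner COL17A1 at 2.02 and 15.8 (2.48), and the laminin-332 chain LAMB3 at 55.3 and 110 (0.97). LAMA3, another chain of that laminin, was at 39.0 and 20.9 (-0.87), so these chains did not differ in 1 direction. MME, the surface peptidase CD10 of myoepithelial cells, was listed at 0 and 32.5, with MME-AS1 on the other strand at 0.243 and 22.1. The 2 lower genes were OXTR (5.38 and 1.28, -1.48) and the contractile kinase MYLK (8.90 and 2.41, -1.54), and the myoepithelial actin ACTA2 was under 1 FPKM in both libraries (0.498 and 0.967). Samples were bulk RNA, so more basal cells and more basal RNA per cell cannot be told apart.

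Desmosomes anchor keratin filaments between cells. Of 13 desmosome genes 10 reached 5 FPKM, with 6 higher and 1 lower (median 1.5). Of the 6 higher genes 4 passed the limit only through the wtBRCA1 library, and of the 6 genes already at 5 FPKM in vector cells 2 were higher. DSC3, a cadherin of basal layers, was listed at 0 in vector cells and at 18.8 in wtBRCA1 cells, and PKP1, a plakophilin of stratified epithelium, was at 1.02 and 30.1 (3.95). DSP, the plakin that binds keratins, was at 11.1 and 50.6 (2.09). Plakoglobin (JUP), which also sits in adherens junctions, was at 160 and 75.5 (-1.07). The lone lower member was thus plakoglobin, and its window of chromosome 17 had a median difference of -0.61 over all protein-coding genes. Among 14 of 26 tight junction genes at 5 FPKM, 11 lay within 2-fold. E-cadherin (CDH1, 101 and 105) and EPCAM (443 and 403) differed by 0.06 and -0.14.

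Of 24 luminal genes 15 reached 5 FPKM, and 9 were 2-fold lower and 2 higher (median -1.16). Of the 9 lower genes 4 passed the limit only through the vector library, and of the 11 genes at 5 FPKM in wtBRCA1 cells 5 were lower. Under OTX-015 the median of the luminal list was -0.62, and 5 of the 9 lower genes were again 2-fold lower. AGR2, a disulfide isomerase of secretory cells, was at 159 and 7.74 (-4.19) under DMSO and differed by -0.54 under OTX-015. TFF1, a secreted trefoil peptide, was at 17.5 and listed at 0. The lineage factors GATA3 (19.1 and 8.02, -1.16) and FOXA1 (8.32 and 3.25, -1.13) were lower, and the epithelial factor ELF3 was higher (80.9 and 181, 1.15), with ELF3 and FOXA1 of opposite sign under OTX-015 (-0.99 and 0.68). Hormone receptor transcripts were not prominent in either line: ESR1 was at 1.97 and 1.30 and PGR was listed at 0 in both. After subtraction of the median of the surrounding 20 Mb window, introduced further on, neither luminal gene stayed 2-fold higher and 8 were 2-fold lower.

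Surface and secreted products of mucosal epithelium belonged to the genes that were lowest in wtBRCA1 cells. Of 18 Ly6 and urothelial surface genes 12 reached 5 FPKM, 5 were 2-fold lower and 0 higher. UPK1B, a uroplakin of the urothelial surface, was at 136 and 0.120 (-6.93). LYPD2 (171 and 1.80, -5.94) and PSCA (90.8 and 0.542, -5.89) are GPI-anchored Ly6 proteins, and MAL (97.9 and 1.95, -5.07) is a raft protein of apical transport. All 5 lower members were under 5 FPKM in wtBRCA1 cells, while LY6D (78.2 and 79.0) and LY6E (1328 and 1144) lay within 2-fold. The genes of PSCA and JRK overlap on opposite strands, and JRK was at 18.3 and 6.15. Among mucins and secretory products, 14 of 28 reached 5 FPKM, with 7 lower and 2 higher. Of the 7 lower genes 5 passed the limit only through the vector library, and of the 9 at 5 FPKM in wtBRCA1 cells 2 were lower. WFDC2, a whey acidic protein family inhibitor, was at 81.1 and 0.840 (-5.48) and MUC4 at 9.19 and 0.551 (-2.72), whereas lipocalin 2 (LCN2), an iron-siderophore binder, was at 672 and 2137 (1.67). In the cornified envelope list 12 of 26 reached the limit, 2 were higher and 3 lower. SPRR1B (3.85 and 20.1, 2.12) and CSTA (1.18 and 12.1, 2.59), both envelope precursors, were higher. SCEL (29.2 and 5.07, -2.31), the protease KLK8 (58.9 and 10.7, -2.36) and the transglutaminase TGM2 (132 and 1.96, -5.49) were lower. RPRD1B, on the other strand at TGM2, was at 25.1 and 11.2. CASP14, a protease of terminal keratinocyte differentiation, was at 1.85 and 90.1 FPKM.

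Lineage transcription factors differed in both directions. Of 37, 18 reached 5 FPKM, with 5 higher and 7 lower. Of the 14 already at 5 FPKM in vector cells 1 was higher, and of the 15 at it in wtBRCA1 cells 4 were lower. All of ID1 (59.3 and 14.7, -1.94), ID2 (9.12 and 1.41, -2.07) and ID3 (11.5 and 2.89, -1.68), which block basic helix-loop-helix factors, were lower, and ID4, the family member linked to basal mammary cells, was higher (0.753 and 5.71, 1.94). The same 4 signs were found under OTX-015 (-2.54, -1.53, -2.92 and 2.46). SOX9, a factor of mammary progenitors (10.9 and 12.7), and RUNX1 (6.94 and 6.07) lay within 2-fold.

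Interferon-stimulated genes formed the group with the most members on 1 side. These genes carry short elements before their start sites that are bound by the ISGF3 complex, which holds STAT2 and IRF9, and by the IRF factors, and their products block viral replication. Of 53 listed, 47 reached 5 FPKM. 43 of the 47 were 2-fold higher in wtBRCA1 cells and 0 were lower, with a median difference of 2.46 against 0.06 for all genes, and the 4 within 2-fold (IFIT2, IFITM3, IFI30 and MX2) had differences from 0.55 to 0.97. Of the 28 already at 5 FPKM in vector cells, 24 were 2-fold higher. The 10-base pattern GAAANNGAAA (TTTCNNTTTC on the other strand), the core of the interferon-stimulated response element, was searched on both strands in the 250 bases before the start in RefSeq promoter records (GRCh38.p14). It was found for 26 of the 39 measured interferon-stimulated genes with a record (66.7%). Among all 27305 genes with a record the share was 3.71%, and among the 7456 protein-coding genes compared that had one, of 9115, it was 3.38%. A gene counted when any of its records held a match. The list was made of genes known to answer interferon, so its share describes the list and not the difference between the lines. A match is a description of letters and not of binding. The 120 bases before the start are printed, with each match in capitals, for 5 genes that span the levels seen and hold the pattern, and for OAS1, in which no match was found in 250 bases. In ISG15 the run of capitals holds 2 matches that overlap.
IFI44L, chr1:78620328-78620447 (plus strand): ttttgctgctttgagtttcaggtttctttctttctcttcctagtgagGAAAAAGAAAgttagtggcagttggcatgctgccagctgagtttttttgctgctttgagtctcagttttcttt
IFI6, chr1:27672193-27672312 (minus strand): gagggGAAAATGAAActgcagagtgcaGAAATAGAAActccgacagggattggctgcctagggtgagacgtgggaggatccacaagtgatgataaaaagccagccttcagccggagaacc
ISG15, chr1:1013377-1013496 (plus strand): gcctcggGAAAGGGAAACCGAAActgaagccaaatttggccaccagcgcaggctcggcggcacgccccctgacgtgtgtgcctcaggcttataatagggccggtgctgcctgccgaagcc
IFI27, chr14:94110616-94110735 (plus strand): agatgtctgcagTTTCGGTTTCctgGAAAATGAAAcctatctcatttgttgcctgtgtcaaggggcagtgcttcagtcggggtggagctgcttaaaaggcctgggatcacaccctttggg
IFIT1, chr10:89392503-89392622 (plus strand): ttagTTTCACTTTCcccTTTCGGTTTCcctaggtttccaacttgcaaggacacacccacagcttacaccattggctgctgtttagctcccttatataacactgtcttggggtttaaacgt
OAS1, chr12:112906842-112906961 (plus strand): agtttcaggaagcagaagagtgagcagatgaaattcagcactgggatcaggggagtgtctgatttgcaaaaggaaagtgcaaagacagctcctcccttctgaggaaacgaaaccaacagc

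The genes shown had very different levels in vector cells and differed in the same direction. IFI44L was at 0.431 FPKM in vector cells and 74.7 in wtBRCA1 cells (5.73). IFI6, an inhibitor of interferon-induced cell death, was at 117 and 2253 (4.26), and IFI27 at 197 and 2575 (3.70), so both were among the most abundant transcripts of the list. ISG15, the ubiquitin-like modifier, was at 42.7 and 208 (2.25), its conjugating enzyme UBE2L6 at 45.4 and 178 (1.95) and its deconjugating protease USP18 at 1.75 and 44.7 (4.05). IFIT1, which binds foreign RNA ends, was at 10.2 and 35.3 (1.70). It lies with IFIT2 and IFIT3 in a region that LIPA covers on the other strand, and LIPA was at 180 and 14.7, the opposite direction. OAS1, a sensor that makes 2-5A from double-stranded RNA, was at 9.34 and 62.8 (2.63). No match to the pattern was found before its start, but its printed bases hold gaaacgaaa, a shorter spacing that the search did not allow. OAS2 (1.03 and 41.3, 4.38) and OAS3 (5.76 and 44.9, 2.76) share the antisense entry RP1-71H24.1 (9.58 and 63.7) with OAS1. The dynamin-like MX1 was at 14.1 and 383 (4.67), with AP001610.5 on the other strand at 8.92 and 78.7. IFI16, a sensor of DNA, was listed at 0 and 41.8.

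Among the protein-coding genes compared, the pattern was found in 73 of 1043 higher genes (7.0%), or 48 of 1006 (4.77%) without the interferon-stimulated list, and in 21 of 870 lower genes (2.41%) and 158 of 5543 genes within 2-fold (2.85%). In the OTX-015 pair the median difference of the 47 genes was 1.46 and 31 of the 43 were again 2-fold higher. IFI44L differed by 1.11 there, IFI6 by 3.63, BST2 by 2.79 and UBE2L6 by -0.32, so the members did not keep 1 order.

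**Figure D3:**
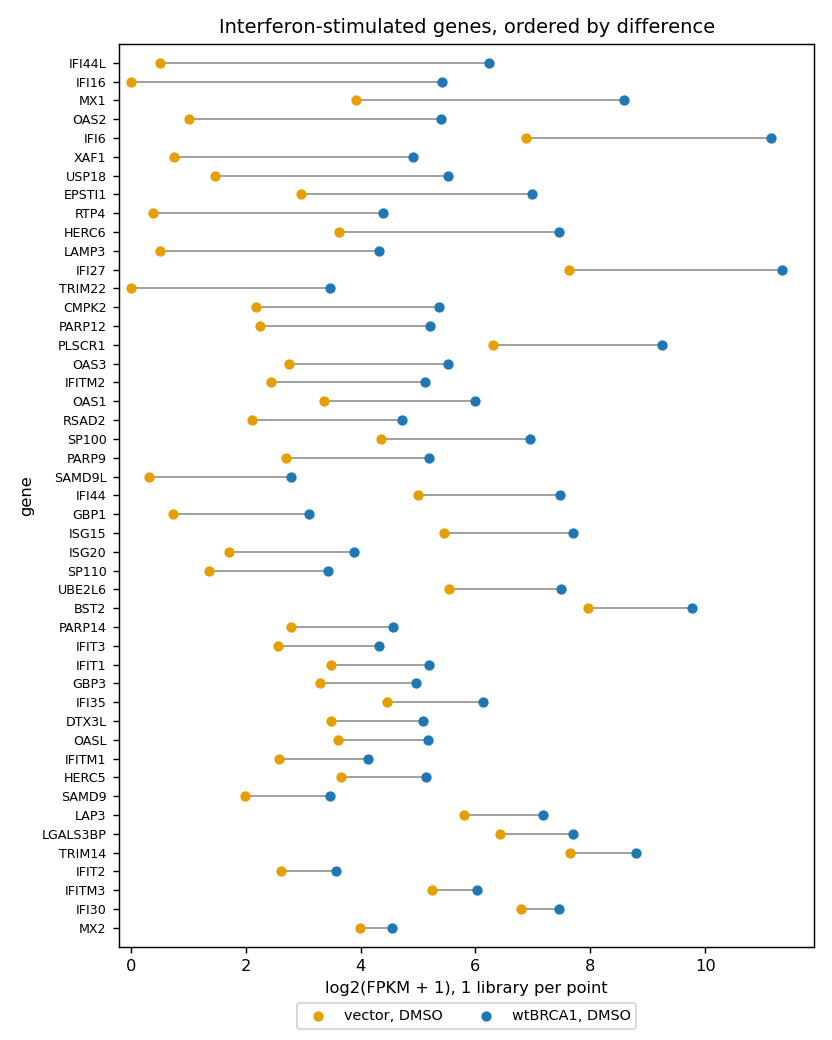
Level of the 47 interferon-stimulated genes at 5 FPKM or more, as log2(FPKM + 1) on the x axis, with 1 library per point and a line joining the vector (orange) and wtBRCA1 (blue) values, ordered by difference. Every wtBRCA1 point lies to the right of its vector point, from IFI44L (5.73) at the top to MX2 (0.55) at the bottom.

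Among interferon signalling genes, IRF9 and the RNA sensors were higher, and most receptor chains lay within 2-fold. Of 37 genes 27 reached 5 FPKM, 12 were higher and 2 lower (median 0.78), and 8 of the 21 already at 5 FPKM in vector cells were higher. IRF9 was at 10.4 and 93.2 (3.05), while STAT2, its partner in ISGF3, was at 11.2 and 17.1 (0.57). RIG-I (DDX58, 4.36 and 23.4, 2.19), MDA5 (IFIH1, 8.47 and 33.9, 1.88) and PKR (EIF2AK2, 33.1 and 113, 1.75), which bind double-stranded RNA, were higher, and MAVS, the adaptor of the first pair, was lower (10.1 and 3.90, -1.17) in a window of chromosome 20 with a median of -0.99. The cytosolic DNA sensor cGAS (MB21D1, 6.57 and 9.64) and its adaptor STING (TMEM173, 11.03 and 10.39) lay within 2-fold. SAMHD1, which depletes nucleotides, was at 3.15 and 50.7 (3.64), with TLDC2 on the other strand at 6.26 and 42.5. The entry AC007899.3 on the other strand at EIF2AK2 was at 13.4 and 60.4. The receptor chains IFNAR1 (11.7 and 17.0), IFNAR2 (4.43 and 8.35) and IFNGR1 (15.3 and 25.9) lay within 2-fold, and IFNGR2 was lower (13.7 and 6.03, -1.06). Among ligands, the type III interferon IFNL1 was listed at 0 and 6.19, and IFNB1 at 0 and 0.246, under the limit.

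Antigen presentation genes were higher or within 2-fold. Of 32 genes of the class I and class II pathways, 22 reached 5 FPKM, 14 were 2-fold higher and 0 lower (median 1.44), and 13 of the 21 already at 5 FPKM in vector cells were higher. HLA-B, a class I heavy chain, was at 217 and 1997 (3.20), HLA-C at 313 and 1111 (1.82), and the light chain B2M at 515 and 1746 (1.76). The 3 immunoproteasome subunits PSMB8 (33.0 and 152, 2.17), PSMB9 (16.8 and 222, 3.64) and PSMB10 (18.2 and 143, 2.90) and the peptide transporter TAP1 (15.7 and 75.5, 2.20) were higher. The chaperones CANX (783 and 701) and PDIA3 (49.7 and 70.0) and the trimming peptidases ERAP1 (9.29 and 8.86) and ERAP2 (5.89 and 6.35) were within 2-fold. HLA genes are near-identical copies whose reads can be shared, HLA-B overlaps an entry on the other strand (XXbac-BPG248L24.12, 97.4 and 1149), and PSMB8, PSMB9, TAP1 and PSMB8-AS1 overlap one another. The class II invariant chain CD74 was at 0.279 and 6.24 (2.50), and the class II transactivator CIITA at 5.05 and 8.56 (0.66).

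Cytokine and NF-kB target genes were mixed. Of 47, 23 reached 5 FPKM, 10 were higher and 4 lower, and 7 of the 18 already at 5 FPKM in vector cells were higher. The chemokine CCL5 (0.622 and 16.1, 3.40), complement factor B (CFB, 10.1 and 89.1, 3.02), the acute phase gene SAA1 (5.44 and 44.3, 2.81) and IL32 (4.06 and 29.5, 2.59) were higher. IL18 (68.3 and 13.4, -2.27) and the NF-kB inhibitor TNFAIP3 (8.83 and 2.78, -1.38) were lower, and NFKBIA, the immediate feedback target, was at 30.3 and 30.8. The chemokines CXCL10 and CXCL11 had values of 0 in vector cells and of 1.20 and 0.239 in the wtBRCA1 library, under the limit.

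**Figure D4:**
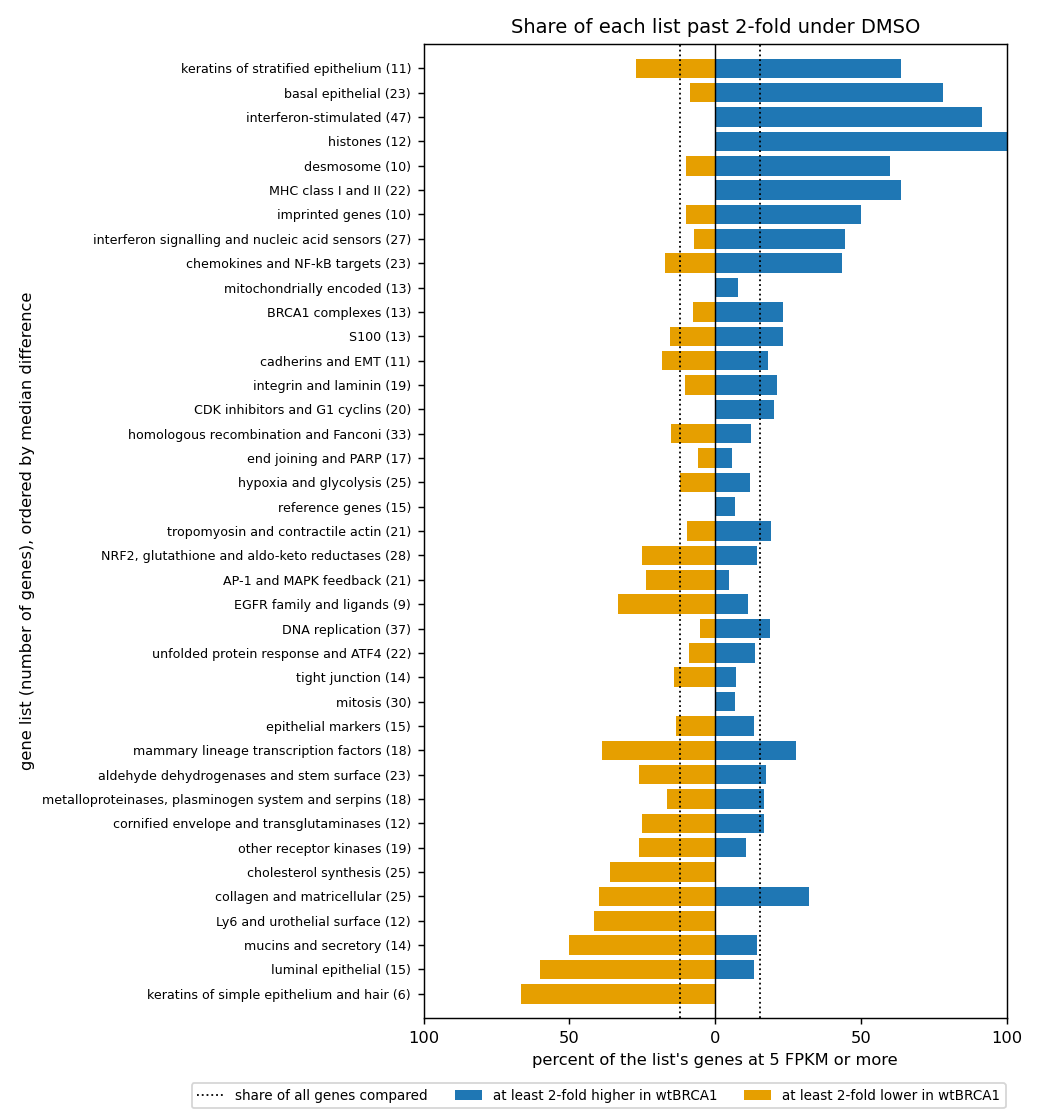
Percent of each gene list at least 2-fold higher (blue, right) or lower (orange, left) in wtBRCA1 cells under DMSO, among its genes at 5 FPKM or more (their number in brackets), ordered by median difference for lists with at least 5 such genes. Dotted lines mark the 15.2% and 12.0% of all genes compared, and genes that passed the limit through 1 library only had to differ, as did 9 of the 12 histone genes.

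Matrix genes differed strongly in both directions. Of 39 collagen and matricellular genes 25 reached 5 FPKM, 8 were higher and 10 lower, against 15.2% and 12.0% of all genes. Of the 21 at 5 FPKM in wtBRCA1 cells 6 were lower. The list median was -0.53 under DMSO and 0.67 under OTX-015, where 9 members were 2-fold higher and 6 lower. Of the 8 higher genes 6 were again higher there, and of the 10 lower genes 6 were again lower. SPARC, a collagen-binding matricellular protein, was at 36.4 and 0.452 (-4.69), the fibrillar collagen COL5A2 at 61.7 and 0.780 (-5.14), and the microfibrillar collagens COL6A1 and COL6A2 at 73.2 and 9.53 (-2.82) and at 68.3 and 5.72 (-3.37). THBS1, an activator of latent TGF-beta, was at 61.9 and 10.4 (-2.46), with the other-strand entry CTD-2033D15.3 at 72.4 and 23.0. Higher were tenascin C (TNC, 4.90 and 43.7, 2.92), the anchoring fibril collagen COL7A1 (1.99 and 12.6, 2.18) and fibronectin (FN1, 2.48 and 13.7, 2.08). The higher members thus included basement membrane anchors, and of the 8 higher genes only COL18A1 was at 5 FPKM in vector cells. Nephronectin (NPNT), a basement membrane ligand of integrin, was listed at 0 and 32.0, with RP11-710F7.2 on the other strand at 0.492 and 21.3. Of 19 measured integrin and laminin genes 13 lay within 2-fold, against 72.8% of all genes, among them ITGB1 (362 and 288) and ITGA3 (332 and 230). ITGA2, a collagen receptor subunit, was lower (46.3 and 12.8, -1.78). In the contractile list, 15 of 21 lay within 2-fold, near that same share of all genes. TPM2, a tropomyosin, was at 0.107 and 102 (6.54), second to C1orf21 among the 15 named higher genes, while TPM1 (127 and 176), TPM3 (72.9 and 86.0) and TPM4 (40.9 and 55.3) lay within 2-fold. TAGLN (5.07 and 36.7, 2.63) was also higher, with PCSK7 on the other strand at 12.4 and 26.1. Of 35 metalloproteinase, plasminogen and serpin genes 18 reached 5 FPKM, 3 higher and 3 lower, against 15.2% and 12.0% of all genes. All 3 lower genes passed the limit only through the vector library. The membrane protease MMP14 (0.614 and 8.73, 2.59) and the antichymotrypsin SERPINA3 (2.41 and 28.8, 3.13) were higher, and another overlapping entry of the symbol SERPINA3 was at 0.0803 and 8.11. The plasminogen activator tPA (PLAT, 8.80 and 0.419, -2.79) was lower.

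Of 17 genes of the EGFR family and its ligands 9 reached 5 FPKM, 1 higher and 3 lower, and of 32 other receptor kinase genes 19 did, 2 higher and 5 lower. Among the 14 of the latter at 5 FPKM in wtBRCA1 cells 2 were lower. EGFR (21.5 and 21.0), ERBB2 (45.0 and 70.8) and ERBB3 (17.5 and 19.8) lay within 2-fold, and MET did too (19.1 and 19.98). The EGFR ligands EREG (19.9 and 1.64, -2.99), TGFA (19.2 and 5.36, -1.67) and AREG (40.3 and 17.0, -1.20) were lower, HBEGF was at 5.42 and 11.6 (0.97), and LRIG1, which lowers EGFR at the surface, was at 1.09 and 12.4 (2.68), with SLC25A26 on the other strand at 36.1 and 35.6. AXL, a receptor of GAS6, was at 70.7 and 5.01 (-3.58), and the collagen receptor DDR1 at 66.3 and 206 (1.62). In the list of immediate early and MAPK feedback genes 21 of 36 reached the limit, with 5 lower and 1 higher, and of the 16 at 5 FPKM in wtBRCA1 cells 1 was lower. The lower ones included the ERK phosphatases DUSP4 (11.2 and 1.27, -2.43) and DUSP5 (13.6 and 3.55, -1.68) and the ERK-dependent factor ETV4 (27.5 and 6.95, -1.84), while FOSL1 (28.4 and 31.1) and MYC (27.4 and 24.8) were within 2-fold.

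Some genes were listed at 0 in 1 line and well above the limit in the other, for which no fold is given. Among protein-coding genes, 50 were listed at 0 in vector cells under DMSO, 40 of them also with OTX-015. The wtBRCA1 line had 22 such genes under DMSO, 15 of them at 0 under both treatments. C1orf21 was at 93.2 FPKM, CLEC7A, a receptor of fungal glucans, at 26.5, the complement protease C1S at 25.6, and kynureninase (KYNU) at 19.99 and CPNE8 at 19.98 in wtBRCA1 cells, and all 5 at 0 in vector cells. HPGD, which inactivates prostaglandins, was at 35.5, the nicotinamide methyltransferase NNMT at 30.7 and the drug exporter ABCG2 at 19.96 in vector cells, and all 3 at 0 in wtBRCA1 cells. DNAJC15, a mitochondrial chaperone partner, was near 0 in wtBRCA1 cells (67.5 and 0.0412), and RPL39L, a paralogue of a ribosomal protein, was near 0 in vector cells (0.761 and 59.6). RBM23, at 2.54 and 126 FPKM, overlaps PRMT5-AS1 on the other strand, which was at 335 and 200.

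Imprinted genes, which are expressed from 1 parental allele and are silent where that allele is methylated or lost, were among them. Of 30, 10 reached 5 FPKM, 5 higher and 1 lower. SNRPN and SNURF, which share 1 transcript of the Prader-Willi locus, had values of 0 in the vector line under both treatments, and of 51.6 and 32.2 in wtBRCA1 cells under DMSO. Their neighbours ATP10A (0.971 and 6.99, 2.02) and UBE3A (14.2 and 26.4, 0.85) differed in the same direction, and the window of chromosome 15 that holds them had a median difference of 0.02. The paternally expressed genes MEST (0.178 and 12.2, 3.48) and PLAGL1 (0 and 5.77) were higher, and PEG10 was lower (77.1 and 2.71, -4.40). All 5 higher members passed the limit through the wtBRCA1 library only. Aldehyde dehydrogenase and stem cell surface genes gave 4 higher and 6 lower of 23 measured, and 4 of the 18 at 5 FPKM in wtBRCA1 cells were lower. ALDH1A1 (14.3 and 0.349, -3.50) and ALDH1A3 (259 and 97.3, -1.40), the isoforms behind the enzyme assay for mammary progenitors, were lower, as was the RNA-binding protein MSI2 (225 and 11.8, -4.14). RP11-66B24.4, on the other strand at ALDH1A3, was at 967 and 338. CD44 (557 and 506) was within 2-fold and CD24 was lower (110 and 47.0, -1.21).

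Repair genes outside the BRCA1 complexes showed shares near those of all genes. Of 45 homologous recombination and Fanconi genes, 33 reached 5 FPKM, 4 were 2-fold higher (12.0% of all genes were lower and 15.2% higher) and 5 lower, with a median of 0.24. NBN, of the break sensor complex, was at 18.8 and 64.9 (1.73), with DECR1 on the other strand at 87.9 and 200.1. Its partner MRE11 (MRE11A) was lower (15.98 and 6.91, -1.10), as were FANCD2, the ubiquitinated hub of crosslink repair (85.4 and 23.2, -1.83), and the recombination mediators RAD51C (57.4 and 18.6, -1.57) and RAD51B (9.73 and 3.40, -1.29). Under OTX-015 the differences were 0.17 for NBN, -1.40 for FANCD2 and -0.75 for RAD51C. On the other strand FANCD2OS, at FANCD2, was at 58.1 and 42.7. ZNF276, at FANCA, was at 31.2 and 61.9. The windows around MRE11A, MCM8 (16.7 and 7.09, -1.13) and FANCA (71.3 and 172, 1.26) had medians of -0.89, -0.99 and 0.96, close to the differences of the genes themselves. After subtraction of the window medians 2 genes were 2-fold higher (NBN by 1.67 and XRCC3 by 1.02) and 1 was lower (FANCD2 by -1.29). End joining genes gave 1 higher and 1 lower of 17. PARP1 was at 68.2 and 133 (0.95) and TP53BP1 at 10.7 and 16.4 (0.58).

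Of the cell cycle lists, the mitotic one had the fewest 2-fold differences. All 30 mitotic genes reached 5 FPKM, and 28 lay within 2-fold (median -0.11), against 72.8% of all genes, among them MKI67 (24.6 and 21.8), CDK1 (70.9 and 57.1) and PLK1 (68.3 and 94.0). FOXM1, a driver of late cell cycle genes, was higher (58.8 and 182, 1.62), with ITFG2 on the other strand at 412 and 938. Of 37 measured replication genes 28 lay within 2-fold, 7 were higher and 2 lower (median -0.03), against 15.2% and 12.0% of all genes. The origin licensing factor CDT1 (25.8 and 123, 2.21) and the helicase subunit GINS2 (16.8 and 87.2, 2.31) were the highest of the 7, both in a window of chromosome 16 with a median of 0.96, and GINS2 differed by -0.10 under OTX-015. GSE1, on the other strand at GINS2, was at 13.2 and 35.6. Of 20 measured CDK inhibitor and G1 cyclin genes 4 were higher and 0 lower, against the same 15.2% and 12.0% of all genes. CDKN2C (3.32 and 27.2, 2.71) and p21 (CDKN1A, 6.93 and 18.1, 1.27) were higher, while CDKN2A (92.0 and 88.2) and CDKN1B (11.6 and 13.6) were within 2-fold. Histone genes gave 12 higher of the 12 at 5 FPKM, of 59 listed. Only 3 were at 5 FPKM in vector cells, HIST1H2BK (7.67 and 89.0, 3.38), HIST1H2AC (7.67 and 45.9, 2.43) and HIST1H1C (8.47 and 26.9, 1.56). Replicative histone mRNAs lack a poly(A) tail, so this selection captures them poorly. The short structural RNA genes set aside held 2.37% of the summed FPKM in the vector library and 5.55% in the wtBRCA1 library under DMSO. Under OTX-015 they held 2.67% and 5.72%, and all 12 histone genes were again 2-fold higher. Whether the libraries differed in their capture of RNA without a poly(A) tail was not tested.

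In the cholesterol synthesis list 2-fold differences were found in 1 direction. All 25 genes reached 5 FPKM, 9 were 2-fold lower and 0 higher, against 12.0% and 15.2% of all genes, and the median was -0.53. The differences of 7 of the 25 were above 0, among them LSS (43.2 and 86.6, 0.99), which lay just under 2-fold. Of the 9 lower genes 4 were under 5 FPKM in wtBRCA1 cells, and of the 21 at 5 FPKM there 5 were lower. HMGCS1 (74.5 and 11.2, -2.63), an early enzyme of the mevalonate pathway, squalene synthase (FDFT1, 165 and 30.1, -2.42) and squalene epoxidase (SQLE, 151 and 49.8, -1.58) were lower. The antisense entry CTD-2636A23.2 inside HMGCS1 was at 1205 and 125. INSIG1, the sterol-induced brake on SREBP (32.1 and 7.70, -1.93), was also lower. Some of these genes lie in windows with negative medians (HMGCS1 -0.50, FDFT1 -0.67), and with the window medians subtracted 10 genes were 2-fold lower and the list median was -0.79. Under OTX-015 the list median was -0.22, with differences of -2.34 for HMGCS1 and -0.14 for SQLE.

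Redox genes differed in both directions. Of 28 measured NRF2, glutathione and aldo-keto reductase genes, 4 were higher and 7 lower, against 15.2% and 12.0% of all genes. AKR1C1 (10.1 and 52.6, 2.27), AKR1C2 (13.5 and 80.9, 2.50) and AKR1C3 (4.24 and 21.8, 2.12), near-identical NRF2 targets whose reads can be shared, were higher. AKR1B1 (481 and 82.8, -2.52) and glutathione reductase (GSR, 102 and 7.58, -3.58) were lower, and NQO1 was at 341 and 633 (0.89), with CTD-2033A16.1 on the other strand at 185 and 411. Of 25 glycolytic genes 19 lay within 2-fold, a share near the 72.8% of all genes. LDHA (381 and 151, -1.33) lies in the window of chromosome 11 with a median of -1.33, while the lactate exporter SLC16A3 (57.1 and 11.3, -2.24) lies in one with a median of 0.40. The 13 mitochondrially encoded genes all had positive differences, from 0.20 for MT-CO1 to 1.13 for MT-ND5, and 12 were within 2-fold.

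Differences also followed chromosomal position. The 9102 protein-coding genes compared outside chromosome Y and the mitochondrial genome were placed in windows of 20 Mb by gene start (hg38, GENCODE 29), and 150 windows with at least 15 genes held 9033 of them. Of the 9102 genes 14.2% were 2-fold higher and 12.1% lower, and their median difference was 0.04. In 17 windows the median was 0.5 or more. They held 977 genes (10.7%) and 339 of the 1293 higher ones (26.2%). In 16 windows it was -0.5 or less, with 835 genes (9.17%) and 305 of the 1101 lower ones (27.7%). Both sets of windows were picked by the median of these same differences. Larger shares of higher or lower genes in them therefore had to be found, and are given as description only. The lowest window was 0 to 20 Mb of chromosome 11, where 71 of 102 genes were 2-fold lower and 5 higher (median -1.33). Next came 0 to 20 Mb of chromosome 20, with 31 of 62 lower and 1 higher (-0.99). The highest was 100 to 120 Mb of chromosome 1, with 36 of 66 higher and 1 lower (1.14), followed by 240 to 260 Mb of chromosome 2 (16 genes, 1.13) and 160 to 180 Mb of chromosome 4 (21 genes, 1.11). Chromosome 20 as a whole had 68 lower and 6 higher of 257 genes, and chromosome 1 had 212 higher and 57 lower of 974.

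The same windows stood out in the OTX-015 libraries. Window medians of the DMSO pair and the OTX-015 pair were related across the 150 windows, which share genes and cell lines but no library (Pearson r 0.921, Spearman rho 0.905, as a description). Signs were the same in 132 windows, including all 17 and all 16 above. The window at 0 to 20 Mb of chromosome 11 had a median of -1.31 under OTX-015 and that at 100 to 120 Mb of chromosome 1 a median of 1.16. Only RNA was measured, DNA copy number was not analysed here, and the cause of these regional differences was not tested. Genes in the named lists can be read against their own window. RRM1, the ribonucleotide reductase subunit (208 and 98.3, -1.07), and the pentose phosphate enzyme TALDO1 (333 and 136, -1.29) lie in the lowest window and differed by 0.26 and 0.04 once its median was subtracted. TRIM22 (0 and 10.04), IFITM1 (4.97 and 16.4, 1.54) and SAA1 lie in the same window and were higher. The interferon-stimulated list had a median of 2.50 after subtraction against 2.46 before, and the basal list 2.23 against 2.48.

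**Figure D5:**
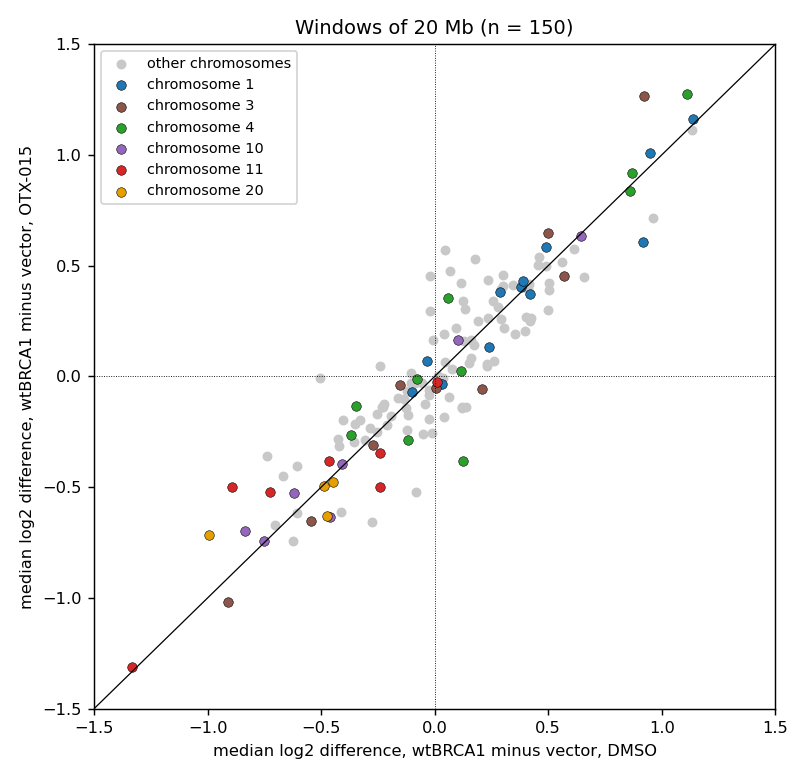
Median log2 difference (wtBRCA1 minus vector) of the protein-coding genes in each of 150 windows of 20 Mb, under DMSO on the x axis and OTX-015 on the y axis, with the line of equality and selected chromosomes in colour. Points lie along the line, from the lowest window of chromosome 11 (-1.33 and -1.31) to the window of chromosome 1 at 1.14 and 1.16.

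Most markers of other cell types were under 1 FPKM in both libraries, with a few exceptions. Of 12 fibroblast markers 9 were under 1 FPKM in both libraries, and COL1A1 (1.86 and 9.78) and FBLN1 (80.5 and 28.2) reached the limit. PDGFRA, PDGFRB, DCN, COL1A2 and COL3A1 were listed at 0 in both libraries. Of 15 immune markers CD14 (0.109 and 9.51) and CD68 (15.5 and 21.9) reached the limit, CD3E, CD2 and TYROBP were listed at 0 in both, and PTPRC was at 0.0689 and 0.225. None of 10 endothelial markers reached it. The summed FPKM was 85.4 and 38.3 for the fibroblast list, 17.3 and 34.6 for the immune list and 10.6 and 6.29 for the endothelial list, against 12821 and 7158 for 15 epithelial markers, all of which reached 5 FPKM. Among 15 reference genes 14 lay within 2-fold, and the exception was B2M.

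In the remaining lists 2-fold differences went both ways or were found in 1 gene. The counts of each stand against 15.2% higher and 12.0% lower among all genes. Of 18 S100 genes 13 reached 5 FPKM, 3 higher and 2 lower, with S100P at 431 and 41.0 (-3.36) opposite to S100A2. The cadherin and EMT list had 2 higher and 2 lower of 11, with the epithelial factor GRHL2 at 14.2 and 48.1 (1.70) and the receptor TGFBR2 at 7.82 and 1.88 (-1.62). Unfolded protein response and ATF4 genes had 3 higher and 2 lower of 22, and the chaperone HSPA5 was at 93.8 and 168 (0.83). Of 11 metallothioneins 3 reached the limit, and MT1E was lower (9.90 and 0.383, -2.98). Cancer-testis genes were mostly silent, with 20 of 25 listed at 0 in both libraries and 1 of the 3 at the limit higher (SYCP3, 5.19 and 13.2, 1.20).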

How the data were processed

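RNA from 4 HCC1937 libraries was sequenced, and the 2 DMSO libraries were compared here, with 1 library per group. The authors deposited 1 FPKM value per gene and library. The submitters' processing notes name TopHat2, Cufflinks and hg38, and the sources used here do not give their versions, the annotation release, the use of strand or a scaling between libraries. Values were joined by gene identifier, and 94.2% of identifiers (56993) matched GENCODE 29, used for gene class and position.

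The pseudocount was 1, the limit 5 FPKM in either DMSO library and the call a difference of 1 on the log2 scale, with no test. The members and the 44 gene lists were chosen with earlier results of these data known. Genes named are list members, the 15 highest and 15 lowest protein-coding differences, the 10 highest genes listed at 0 in 1 library, the 10 highest FPKM of each library and partners at their loci. Alternatives covered pseudocounts of 0.1 and 5, limits of 1, 10 or none, rescaling, quantile normalization, summed symbols, gene classes and window centring. Values of a few listed genes are not reported here. The code was tested on simulated data. Python 3.11.15, pandas 2.3.3, numpy 2.4.6 and matplotlib 3.10.9 were used.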

Additional observations from a re-analysis of the deposited data

Results flagged for a closer look

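In 2 of the listed or named genes at 5 FPKM or more in either DMSO library, the line difference was above 1 on the log2 scale in 1 direction under DMSO and above 1 in the other direction under OTX-015. IL1RN, the interleukin 1 receptor antagonist, differed by 1.45 under DMSO and by -1.53 under OTX-015. RBM14-RBM4, a readthrough of neighbouring genes whose reads can be shared with them, differed by -3.12 and 1.90. With 1 library per group the difference between the treatments was not tested for either gene.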

How the results depend on the processing

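Counts of 2-fold differences depended most on the larger pseudocount and on the number of genes compared. A pseudocount of 5 gave 1099 higher and 873 lower of the 11454 genes in place of 1739 and 1379. A limit of 1 FPKM gave 2719 and 2141 of 16915 genes, and no limit gave 2719 and 2141 of 52980. The limit sets which genes are counted and does not change the difference of a gene. A difference of 1 on this scale needs at least 1 FPKM in 1 library, so the counts at a limit of 1 and at none had to be equal. The other alternatives stayed within 1.5 times: a pseudocount of 0.1 gave 1931 and 1531, rescaling by the median of ratios 1602 and 1523, quantile normalization 1599 and 1534, and subtraction of the median of the 20 Mb window 1352 and 1213, which was chosen after seeing the data. Of 320 listed or named genes that differed 2-fold, 59 fell short of it at the larger pseudocount, 49 with the window median subtracted and 5 with the median-of-ratios scaling. RRM1 (0.26) and TALDO1 (0.0418) changed sign with the window median subtracted, which by construction removes what their window shares. Among list counts of at least 5, those that moved by over 1.5 times were the following. Lineage transcription factors gave 2 higher in place of 5 with a pseudocount of 5 or with the window median subtracted and 1 at a limit of 10 FPKM, and 4 lower in place of 7 with a pseudocount of 5. Homologous recombination genes gave 2 lower in place of 5 with that pseudocount and 1 with the window median subtracted. Other receptor kinases gave 2 lower in place of 5, and AP-1 and MAPK feedback genes 3 in place of 5, with a pseudocount of 5 or a limit of 10. Imprinted genes gave 3 higher in place of 5 at a limit of 10, replication genes 3 in place of 7 with the window median subtracted, and histones 23 in place of 12 at a limit of 1 FPKM or none and 6 at 10. No paired analysis was possible because each group has 1 library and no test was made, and no library could be left out for the same reason. Depth is unknown, so the error of low values cannot be given.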
